A study of Mus musculus with 18 samples.

Results

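Interferon response genes are genes whose transcripts are known to increase when a cell senses interferon. A list of 39 of them was taken by name for their known role, with earlier results of these data already known. All 39 were found in the count table of 56953 genes. Of these, 38 passed the filter on low counts and were among the 16747 genes tested. Oas2 did not pass, with 35 estimated counts summed over all 18 libraries.

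Type I interferons bind the receptor chains IFNAR1 and IFNAR2 and, through the kinases JAK1 and TYK2, activate a complex with STAT2 and IRF9 that binds interferon response elements in promoters. Interferon gamma, which natural killer (NK) cells themselves secrete, acts through its own receptor and on STAT sites. The genes switched on encode sensors of foreign nucleic acid, antiviral effectors, GTPases that attack pathogen vacuoles, and the machinery that loads peptides on class I molecules.

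RNA came from NK cells of mouse spleen, cultured for 7 days in 1% oxygen with 1700 U/ml of human interleukin 2. The product of Hif1a is the subunit of HIF-1 that low oxygen stabilises. Ahr codes for AhR, the aryl hydrocarbon receptor, which binds small molecules and pairs with the same partner protein as HIF-1. The 6 groups of 3 libraries were Hif1a KO (Ncr1 iCre, Hif1a fl/fl) and Hif1a flox (Hif1a fl/fl), Ahr KO (Ncr1 iCre, Ahr fl/fl) and Ahr flox (given as Ahr fl/f), and Hif1a Ahr KO (Ncr1 iCre with both floxed genes) and Hif1a Ahr flox (both floxed genes without Cre). Cre was driven by Ncr1, the gene of the NK receptor NKp46, so a cell without NKp46 would keep the floxed gene. Every KO group carried Cre and no flox group did, and no group had Cre alone, so an effect of Cre cannot be told apart from an effect of the deletion within a line. Each line was compared with its own flox group. The replicates are labelled biological, but no label ties them to separate animals, so p-values measure the spread between these libraries.

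Library totals lay between 54420649 and 55732940 estimated counts. Levels are given as CPM (counts scaled to library size, with TMM factors), changes as log2 KO over flox with their standard error (SE), and a gene is said to have risen or fallen where edgeR's quasi-likelihood test gave a Benjamini-Hochberg adjusted p under 0.05 over all genes tested. Calls are those of this test on all 18 libraries without pairing, unless another fit is named. Gene-level Hif1a transcripts averaged 180 ± 32.0 CPM in Hif1a KO cells and 60.3 ± 4.28 CPM in Hif1a flox cells, and 192 ± 25.5 CPM in Hif1a Ahr KO cells and 59.8 ± 2.26 CPM in Hif1a Ahr flox cells (SD, n = 3 each). Ahr transcripts averaged 92.1 ± 4.4 CPM in Ahr KO cells and 76.5 ± 2.35 CPM in Ahr flox cells, and 55.5 ± 13.5 CPM in Hif1a Ahr KO cells and 66.3 ± 13.1 CPM in Hif1a Ahr flox cells. A whole-gene count includes transcripts without the deleted exon, so these values check neither deletion. In the Hif1a line Ahr transcripts averaged 44.7 ± 10.5 CPM in KO cells and 31.6 ± 6.7 CPM in flox cells. That flox mean lies below those of the other flox groups. The HIF-1 target Slc2a1, a glucose transporter gene chosen with its values known, averaged 85.3 ± 6.22 CPM in Hif1a KO cells and 465 ± 47.2 CPM in Hif1a flox cells. Slc2a1 averaged 120 ± 0.914 CPM in Hif1a Ahr KO cells and 426 ± 55.5 CPM in Hif1a Ahr flox cells. The 8 NK marker genes summed to between 12200 and 26600 CPM in the 18 libraries, and all 8 were detected. In bulk RNA, fewer cells of a type and less RNA per cell cannot be told apart.

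The promoters shown are those of 6 genes that stand for the different responses described further on. Each window runs from 250 bases before to 50 bases after a RefSeq transcription start (GRCm38.p6), and 29 of the 39 genes matched a window by symbol. No window was used here for Dhx58, Parp9, Rtp4, Oas2, Mx1, Usp18, Zbp1, Gbp4, Mx2 and Parp14. Capitals mark, on either strand, the interferon response core (GAAANNGAA, or TTCNNTTTC read from the other strand) and the STAT site (TTCNNNGAA, which reads the same on both strands). They also mark the hypoxia response core, searched in its ACGTG form only, and the AhR response core (GCGTG). These last cores differ in their first base only, and GCGTG was counted under the AhR name alone. The names therefore do not tell which factor could bind a match. Gbp3 (chr3:142559794-142560093, plus strand, the first of its 2 windows) rose in all 3 KO groups. Irf1 (chr11:53769764-53770063, plus strand, the first of its 2 windows) and Ifih1 (chr2:62646206-62646505, minus strand) rose in Hif1a KO cells without a call for a rise in Hif1a Ahr KO cells. Tap1 (chr17:34187306-34187605, plus strand) rose in both, and its window shares 275 bases with that of Psmb9 on the other strand. Isg15 (chr4:156200769-156201068, minus strand) fell in Hif1a Ahr KO cells, and Isg20 (chr7:78913515-78913814, plus strand, the second of its 3 windows) had the largest called fall in Hif1a KO cells.

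Gbp3: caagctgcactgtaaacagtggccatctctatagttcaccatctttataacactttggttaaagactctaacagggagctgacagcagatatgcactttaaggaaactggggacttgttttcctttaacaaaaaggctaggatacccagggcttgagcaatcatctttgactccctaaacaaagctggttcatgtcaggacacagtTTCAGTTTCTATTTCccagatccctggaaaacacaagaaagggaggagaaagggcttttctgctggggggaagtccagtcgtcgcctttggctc

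Irf1: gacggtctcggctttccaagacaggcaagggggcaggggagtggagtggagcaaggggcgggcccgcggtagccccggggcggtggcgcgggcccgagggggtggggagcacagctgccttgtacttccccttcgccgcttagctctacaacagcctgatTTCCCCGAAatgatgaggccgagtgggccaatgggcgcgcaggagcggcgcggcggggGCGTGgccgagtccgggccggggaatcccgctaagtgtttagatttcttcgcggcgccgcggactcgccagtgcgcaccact

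Ifih1: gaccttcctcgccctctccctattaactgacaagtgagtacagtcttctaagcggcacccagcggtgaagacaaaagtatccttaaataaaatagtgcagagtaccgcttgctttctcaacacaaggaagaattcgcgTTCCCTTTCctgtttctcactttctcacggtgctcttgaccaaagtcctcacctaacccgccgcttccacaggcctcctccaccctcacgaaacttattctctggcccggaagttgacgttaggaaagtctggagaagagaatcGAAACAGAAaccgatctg

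Tap1: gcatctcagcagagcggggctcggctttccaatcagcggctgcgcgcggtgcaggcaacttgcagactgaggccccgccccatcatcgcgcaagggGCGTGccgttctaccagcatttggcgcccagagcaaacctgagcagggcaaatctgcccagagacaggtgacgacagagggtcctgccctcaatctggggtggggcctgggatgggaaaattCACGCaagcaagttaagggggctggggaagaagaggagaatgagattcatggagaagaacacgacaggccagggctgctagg

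Isg15: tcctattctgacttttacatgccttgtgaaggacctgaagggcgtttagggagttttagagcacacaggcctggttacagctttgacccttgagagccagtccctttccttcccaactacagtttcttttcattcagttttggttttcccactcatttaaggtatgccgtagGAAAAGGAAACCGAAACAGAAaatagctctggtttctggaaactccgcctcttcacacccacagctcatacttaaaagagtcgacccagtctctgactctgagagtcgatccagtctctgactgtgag

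Isg20: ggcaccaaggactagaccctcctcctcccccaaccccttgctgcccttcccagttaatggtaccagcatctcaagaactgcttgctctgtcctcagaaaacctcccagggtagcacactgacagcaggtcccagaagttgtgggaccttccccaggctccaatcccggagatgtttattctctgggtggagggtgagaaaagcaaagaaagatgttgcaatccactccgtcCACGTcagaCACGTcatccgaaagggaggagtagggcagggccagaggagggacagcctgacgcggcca

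Gbp3 and Ifih1 each held 2 interferon response cores and Isg15 held 3, the last in one run of capitals because the matches overlap each other. Irf1 held a STAT site and an AhR response core, and Tap1 held 2 AhR response cores. The Isg20 window shown held 2 hypoxia response cores. The Isg20 window at chr7:78913174-78913473 held a STAT site and no hypoxia response core, and that at chr7:78913985-78914284 held no match. Only the Isg20 window shown thus held the hypoxia response core. No reason for showing that window is given, so its matches are not read as a link to HIF-1. The interferon response core was found in the windows of 17 of the 29 genes (58.6%), against 9.76% of 27025 genes and 8.56% of all 32851 windows. Of the 17 genes with a window that rose in Hif1a KO cells, 11 held it. The STAT site was in 9 of the 29 (31.0%), against 9.55% of all genes and 8.30% of all windows. The hypoxia response core in its ACGTG form was in 3 (10.3%: Igtp, Isg20 and Oasl2), against 21.8% of genes and 19.6% of windows. The AhR response core was in 13 (44.8%), against 35.2% of genes and 32.4% of windows. A match describes these letters in these windows and is not a binding site shown to work.

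In Hif1a KO cells 20 of the 38 genes rose and 2 fell. Over all genes tested, 17.6% rose and 17.8% fell in this comparison. The median log2 change of the 38 was 0.34, beside -0.01 for all genes. The rises were mostly moderate, between 0.21 and 1.44 on the log2 scale, and 4 of the called genes changed more than 2-fold. With same-numbered replicates as pairs, 4 genes were called lower, while the shares over all genes are those of the fit without pairs. In Ahr KO cells 2 of the 38 rose (2.14% of all genes rose) and 4 fell (4.78% of all genes fell), with a median of -0.04 beside 0.00 for all genes. The 4 falls became 1 when Ahr KO replicate 3 or Ahr flox replicate 1 was left out, and 2 when Ahr KO replicate 2 or Ahr flox replicate 3 was. In Hif1a Ahr KO cells 8 rose (14.8% of all genes) and 9 fell (16.5% of all genes), with a median of 0.02 beside -0.02 for all genes. Over the 3 comparisons 30 of the 38 were called at least once, a count for which no share of all genes is given here. The same direction in all 3 comparisons was called for Gbp3.

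**Figure D1:**
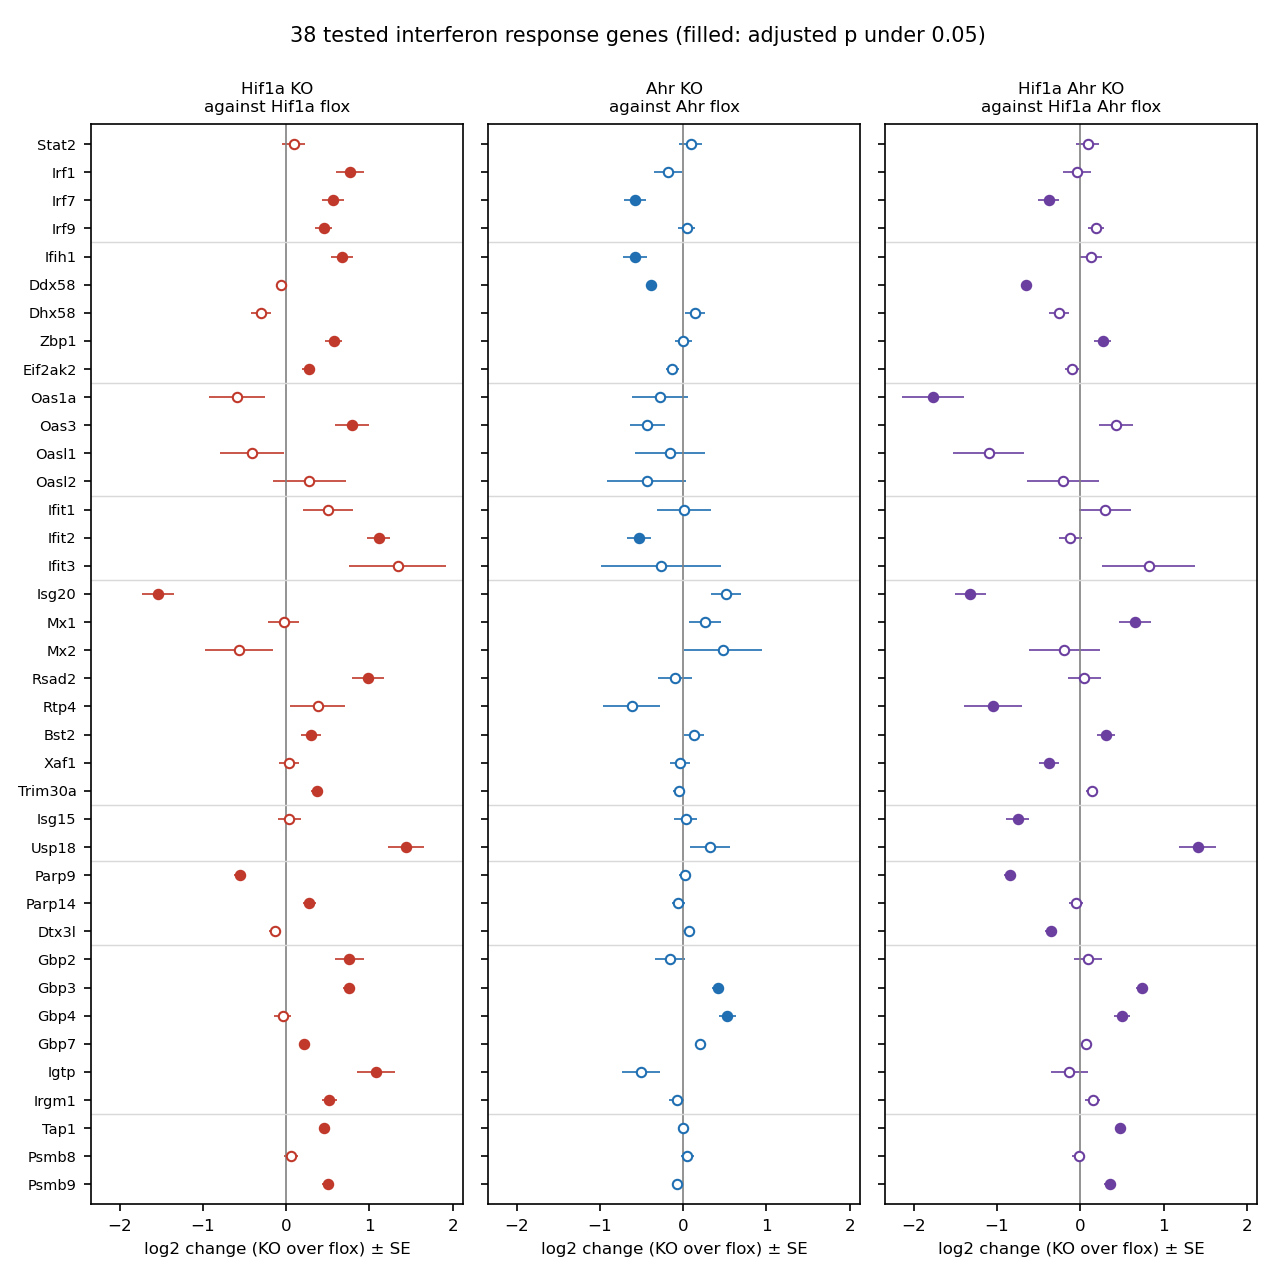
Log2 change (KO over flox) with its standard error for the 38 tested interferon response genes, 1 panel per mouse line and grey lines between functional groups, with filled points at an adjusted p under 0.05. Most filled points lie right of 0 in the Hif1a panel (20 right, 2 left), few are filled in the Ahr panel (2 right, 4 left), and they lie on both sides in the Hif1a Ahr panel (8 right, 9 left).

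A mean over the 38 genes of log2(CPM + 0.5), each gene centred on its mean of the 18 libraries, was 0.29, 0.37 and 0.22 in the Hif1a KO libraries, against -0.04, 0.05 and 0.06 in the Hif1a flox libraries. It was -0.16, -0.15 and -0.13 in Ahr KO libraries, against -0.05, -0.16 and -0.08 in Ahr flox libraries. In the Hif1a Ahr line it was 0.02, -0.26 and 0.05 in KO libraries, against 0.10, -0.11 and 0.00 in flox libraries. The Hif1a KO libraries are the 3 highest of the 18, and Hif1a Ahr KO replicate 2 is the lowest. The 38 genes and Oas2 took 0.187%, 0.205% and 0.185% of all counts in Hif1a KO libraries, against 0.15%, 0.157% and 0.158% in Hif1a flox libraries. Of the 39 genes, 23 had their highest group mean in Hif1a KO cells and none had its lowest there. No such share over all genes is given here.

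**Figure D2:**
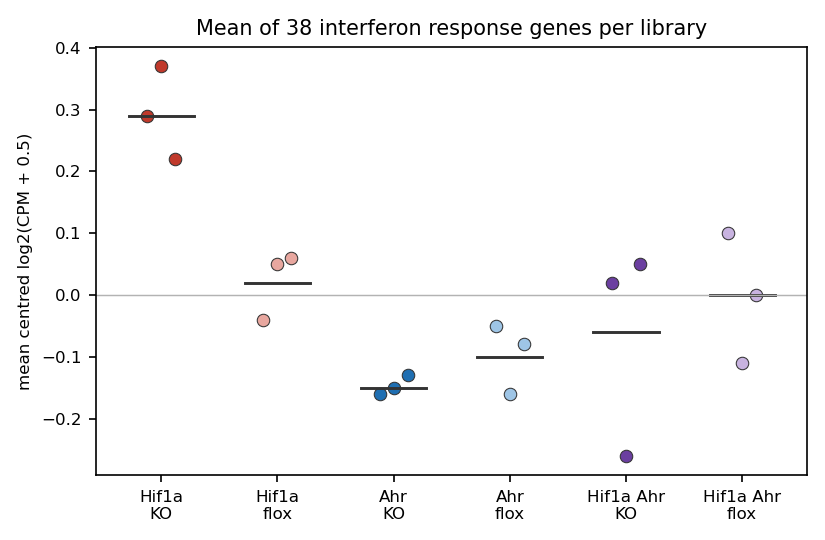
Mean centred log2(CPM + 0.5) of the 38 tested interferon response genes in each library (points) with the group mean (line). The Hif1a KO libraries at 0.22 to 0.37 lie above the other 15 libraries, and Hif1a Ahr KO replicate 2 at -0.26 lies lowest.

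Of the transcription factors, Stat2, a subunit of the interferon-activated complex, had 32.1, 34.8 and 36.0 CPM in Hif1a KO libraries, against 28.7, 31.3 and 37.0 CPM in Hif1a flox libraries. It had 37.9, 31.7 and 34.8 CPM in Ahr KO libraries, against 38.9, 28.6 and 30.1 CPM in Ahr flox libraries, and 29.2, 36.0 and 35.4 CPM in Hif1a Ahr KO libraries, against 32.9, 36.0 and 25.5 CPM in Hif1a Ahr flox libraries. Its groups overlapped in every line, and its change was 0.09 ± 0.14 in each (adjusted p = 0.667, 0.777 and 0.658 in the lines Hif1a, Ahr and Hif1a Ahr). Irf9, the DNA-binding subunit of the same complex, had 23.4, 25.0 and 19.8 CPM in Hif1a KO libraries, against 16.1, 16.7 and 17.3 CPM in Hif1a flox libraries. All 3 KO values lay above the flox values, and Irf9 rose by 0.45 ± 0.10 (adjusted p = 0.00246). In the Ahr line Irf9 had 17.1, 18.2 and 17.0 CPM in KO libraries, against 17.9, 16.7 and 16.3 CPM in flox libraries. In the Hif1a Ahr line it had 18.9, 17.0 and 20.0 CPM in KO libraries, against 17.8, 13.5 and 17.7 CPM in flox libraries. Neither change was called (0.04 ± 0.10, adjusted p = 0.893, and 0.19 ± 0.10, adjusted p = 0.179).

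Irf1, a factor that interferon gamma is known to induce and that acts on class I genes, had 127, 140 and 96.4 CPM in Hif1a KO libraries, against 63.2, 72.2 and 77.3 CPM in Hif1a flox libraries. The ranges were apart, and Irf1 rose by 0.77 ± 0.17 (adjusted p = 0.00234). In the other lines it had 73.4, 57.1 and 59.1 CPM in Ahr KO libraries, against 87.1, 60.5 and 67.3 CPM in Ahr flox libraries, and 79.3, 60.1 and 83.7 CPM in Hif1a Ahr KO libraries, against 70.3, 72.4 and 87.1 CPM in Hif1a Ahr flox libraries. Those groups overlapped, with changes of -0.18 ± 0.17 (adjusted p = 0.622) and -0.04 ± 0.17 (adjusted p = 0.882).

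Irf7, the factor that amplifies production of type I interferon, moved in opposite directions. It had 16.0, 15.9 and 13.0 CPM in Hif1a KO libraries, against 10.5, 10.3 and 9.53 CPM in Hif1a flox libraries, a rise of 0.56 ± 0.13 (adjusted p = 0.00267). It had 7.61, 7.70 and 7.31 CPM in Ahr KO libraries, against 12.1, 10.4 and 11.2 CPM in Ahr flox libraries, a change of -0.58 ± 0.13 (adjusted p = 0.0137). It had 10.2, 7.52 and 9.56 CPM in Hif1a Ahr KO libraries, against 12.9, 9.28 and 13.4 CPM in Hif1a Ahr flox libraries, a change of -0.38 ± 0.13 (adjusted p = 0.0352). KO and flox values were apart in the single KO lines and overlapped in the Hif1a Ahr line. The call in the Ahr line was lost without Ahr KO replicate 3 (adjusted p = 0.0554) or Ahr flox replicate 1 (0.0766). The call in the Hif1a Ahr line was lost without KO replicate 2 (0.187) or 3 (0.0553) or flox replicate 1 (0.122) or 3 (0.147). With the libraries of that line alone it was also lost (0.148).

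**Figure D3:**
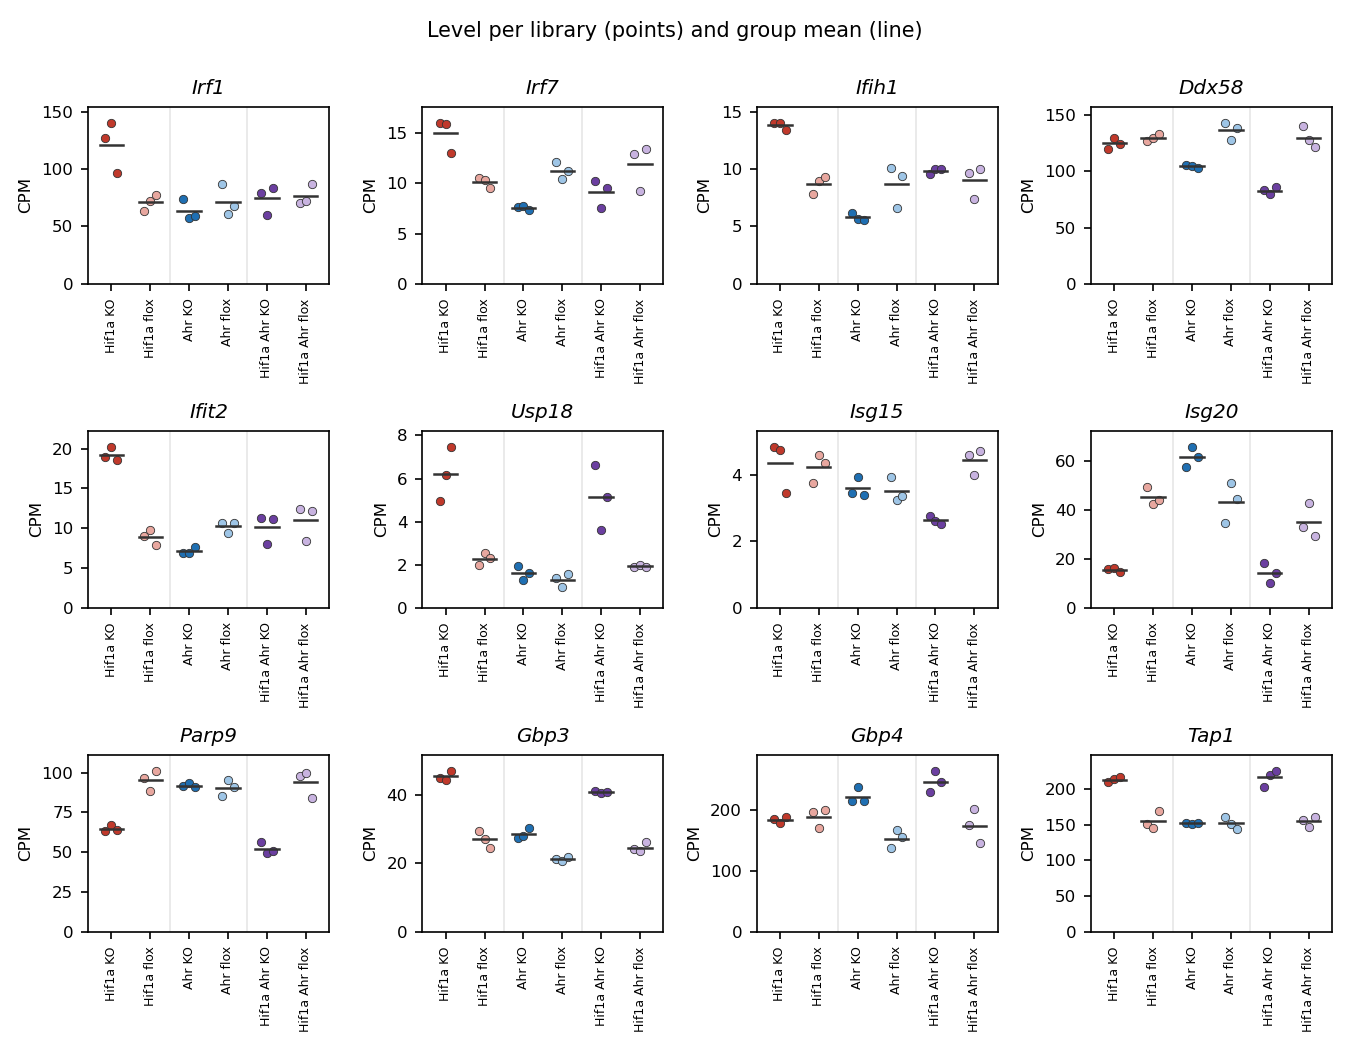
CPM of 12 interferon response genes in each of the 18 libraries (points) with group means (lines), the KO group left of the flox group of its line and linear axes from 0. Irf1, Ifih1, Ifit2, Usp18, Gbp3 and Tap1 are highest in KO groups of the Hif1a or Hif1a Ahr line, Isg20 and Parp9 are lowest there, and Gbp4 is higher in the Ahr KO and Hif1a Ahr KO groups than in their flox groups.

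Among sensors of foreign nucleic acid, Ifih1, Zbp1 and Eif2ak2 rose in Hif1a KO cells, 3 of 5 (17.6% of all genes rose). Ifih1, which encodes the RNA sensor MDA5, had 14, 14 and 13.4 CPM in Hif1a KO libraries, against 7.81, 8.92 and 9.30 CPM in Hif1a flox libraries, and rose by 0.67 ± 0.13 (adjusted p = 0.000737). It had 6.18, 5.68 and 5.57 CPM in Ahr KO libraries, against 10.1, 6.61 and 9.37 CPM in Ahr flox libraries, a change of -0.58 ± 0.14 (adjusted p = 0.0148). Hif1a Ahr KO libraries had 9.58, 9.99 and 10.0 CPM, against 9.67, 7.40 and 10.0 CPM in Hif1a Ahr flox libraries (0.13 ± 0.13, adjusted p = 0.524). The values were thus high in Hif1a KO cells, low in Ahr KO cells and overlapping in the Hif1a Ahr line. The fall in Ahr KO cells was not called without Ahr KO replicate 2 (0.0656) or 3 (0.0615) or Ahr flox replicate 1 (0.106) or 3 (0.0738).

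Ddx58, which encodes the RNA sensor RIG-I, had 120, 130 and 124 CPM in Hif1a KO libraries, against 127, 130 and 133 CPM in Hif1a flox libraries (-0.06 ± 0.06, adjusted p = 0.481). It had 106, 105 and 103 CPM in Ahr KO libraries, against 143, 128 and 139 CPM in Ahr flox libraries, and fell by 0.39 ± 0.06 in log2 (adjusted p = 0.000716). It had 83.1, 79.6 and 85.8 CPM in Hif1a Ahr KO libraries, against 140, 128 and 122 CPM in Hif1a Ahr flox libraries, a change of -0.65 ± 0.06 (adjusted p = 2.66e-07). Ddx58 was thus lower where Ahr was floxed with Cre, alone or with Hif1a, and both calls held without each library in turn. Zbp1, a sensor of left-handed nucleic acid, changed by 0.57 ± 0.10 in Hif1a KO cells (adjusted p = 0.000163), 0.00 ± 0.10 in Ahr KO cells and 0.27 ± 0.10 in the Hif1a Ahr KO group (adjusted p = 0.0432). The last was lost without Hif1a Ahr KO replicate 1 (0.124) or 3 (0.137), Hif1a Ahr flox replicate 2 (0.0678) or 3 (0.165), Hif1a KO replicate 1 (0.0554), Hif1a flox replicate 1 (0.0545), Ahr KO replicate 3 (0.0541) or Ahr flox replicate 1 (0.0502). With the libraries of the Hif1a Ahr line alone it was also lost (0.112). Eif2ak2, the RNA-activated kinase PKR, changed by 0.27 ± 0.08 in Hif1a KO cells (adjusted p = 0.0144), a call lost without Hif1a KO replicate 2 (0.0674) or Hif1a flox replicate 1 (0.0774). Dhx58, which encodes LGP2, was not called in any line (-0.30 ± 0.12, adjusted p = 0.0575 in Hif1a KO cells), but with same-numbered replicates as pairs, which the Hif1a line allows, it was called lower (adjusted p = 0.0351). It was also called lower in the Hif1a Ahr line without KO replicate 1 (0.00788) or flox replicate 3 (0.0354).

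The OAS family makes or resembles enzymes of the 2′-5′ oligoadenylates that activate RNase L. Oas3 rose in Hif1a KO cells by 0.79 ± 0.20 (adjusted p = 0.0043), where its libraries had 6.01, 8.14 and 7.24 CPM, against 3.32, 4.80 and 4.26 CPM in Hif1a flox libraries. It was not called in Ahr KO cells (-0.43 ± 0.21, adjusted p = 0.249) or Hif1a Ahr KO cells (0.43 ± 0.20, adjusted p = 0.109), the last becoming a call without Hif1a Ahr KO replicate 2 (0.0418) or Hif1a Ahr flox replicate 1 (0.0277). Oas1a had 3.95, 0.966 and 2.13 CPM in Hif1a Ahr KO libraries, against 11.6, 5.16 and 7.24 CPM in Hif1a Ahr flox libraries, a change of -1.77 ± 0.37 (adjusted p = 0.00216). That call was lost with the libraries of the line alone (-1.76, adjusted p = 0.0722). In Hif1a KO cells Oas1a changed by -0.59 ± 0.34 (adjusted p = 0.208), and was called lower with replicates as pairs (adjusted p = 0.00354) and with the libraries of the line alone (0.00481). Summed with its paralogs Oas1b to Oas1h, the Oas1a change in Hif1a Ahr KO cells was -0.59 (adjusted p = 0.000222), smaller by more than 1.5 times. Oasl1 and Oasl2, at group means of at most 0.415 and 0.845 CPM, were not called, with changes between -1.10 and 0.28. Oas2 had counts above 0 in 14 of 18 libraries and at most 7 counts in one.

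The IFIT family binds foreign RNA and blocks its translation. Ifit2 had 18.9, 20.2 and 18.6 CPM in Hif1a KO libraries, against 9.03, 9.80 and 7.92 CPM in Hif1a flox libraries, and rose by 1.11 ± 0.14 (adjusted p = 1.12e-05). It had 6.88, 6.85 and 7.61 CPM in Ahr KO libraries, against 10.7, 9.42 and 10.6 CPM in Ahr flox libraries, a change of -0.53 ± 0.14 (adjusted p = 0.0337). Hif1a Ahr KO libraries had 11.3, 7.96 and 11.2 CPM, against 12.4, 8.40 and 12.2 CPM in Hif1a Ahr flox libraries (-0.12 ± 0.14, adjusted p = 0.587). Hif1a KO values lay above the flox values with no overlap, Ahr KO values lay below their flox values, and the Hif1a Ahr groups overlapped. The fall in Ahr KO cells was not called without Ahr KO replicate 1 (0.101), 2 (0.133) or 3 (0.0627) or Ahr flox replicate 1 (0.136) or 3 (0.112), nor by limma voom (0.0512). Ifit1 and Ifit3 had group means of at most 0.744 and 0.760 CPM and were not called, with 0.50 ± 0.30 (adjusted p = 0.218) and 1.34 ± 0.58 (adjusted p = 0.0836) in Hif1a KO cells. Counts of near-identical paralogs may be divided between them, so these are uncertain. Summed with Ifit1bl1 and Ifit1bl2, Ifit1 was called higher in Hif1a KO cells (1.35, adjusted p = 0.00115), and Ifit3 was called there with replicates as pairs (1.38, adjusted p = 0.0146).

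The 8 antiviral effectors split, with 3 higher and 1 lower in Hif1a KO cells (17.6% and 17.8% of all genes). None was called in Ahr KO cells (2.14% of all genes rose and 4.78% fell). In Hif1a Ahr KO cells 2 were higher and 3 lower (14.8% and 16.5% of all genes). Isg20, an exonuclease that degrades viral RNA, had 15.6, 16.3 and 14.6 CPM in Hif1a KO libraries, against 49.2, 42.2 and 43.9 CPM in Hif1a flox libraries, a change of -1.54 ± 0.19 (adjusted p = 2.07e-05). It had 18.1, 9.90 and 14.3 CPM in Hif1a Ahr KO libraries, against 33.0, 42.9 and 29.3 CPM in Hif1a Ahr flox libraries, a change of -1.32 ± 0.19 (adjusted p = 9.92e-05). Ahr KO libraries had 57.2, 65.5 and 61.5 CPM, against 34.7, 50.8 and 44.3 CPM in Ahr flox libraries (0.51 ± 0.18, adjusted p = 0.122). Isg20 was thus low in both groups with Hif1a floxed and Cre, with no overlap with flox values, and above the flox values without a call in Ahr KO cells. That rise was a call with the libraries of the Ahr line alone (adjusted p = 0.0406) and without Hif1a Ahr KO replicate 2 (0.0453).

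Rsad2, which encodes viperin, had 2.96, 3.33 and 2.40 CPM in Hif1a KO libraries, against 1.42, 1.37 and 1.61 CPM in Hif1a flox libraries, and rose by 0.98 ± 0.19 (adjusted p = 0.000618). Trim30a, a TRIM-family ubiquitin ligase gene, changed by 0.37 ± 0.07 in Hif1a KO cells (adjusted p = 0.000255). Neither was called in the other lines. Bst2, which encodes tetherin, a protein that holds budding virus at the cell surface, changed by 0.30 ± 0.12 in Hif1a KO cells (adjusted p = 0.0488) and 0.31 ± 0.11 in the Hif1a Ahr KO group (adjusted p = 0.045). Both calls are close to the threshold. The first was lost without any 1 of the 6 Hif1a line libraries, the 3 Ahr KO libraries, Ahr flox replicates 1 or 2, or Hif1a Ahr KO replicate 3 (0.0524 to 0.147). The second was lost without any 1 of the same Hif1a and Ahr libraries, Hif1a Ahr KO replicates 1 or 3, or Hif1a Ahr flox replicates 1 or 2 (0.0505 to 0.193). With the libraries of the Hif1a Ahr line alone it was also lost (0.171). Mx1, a dynamin-like antiviral GTPase, had 12, 13.6 and 10.2 CPM in Hif1a Ahr KO libraries, against 7.72, 7.35 and 7.55 CPM in Hif1a Ahr flox libraries (0.66 ± 0.19, adjusted p = 0.0123, and 0.0641 without KO replicate 2). Rtp4, a chaperone gene, and Xaf1, a binding partner of the apoptosis inhibitor XIAP, fell in Hif1a Ahr KO cells, with changes of -1.05 ± 0.35 (adjusted p = 0.0301) and -0.38 ± 0.12 (adjusted p = 0.0264). Rtp4 lost its call without Hif1a Ahr KO replicate 2 (-0.65, adjusted p = 0.0756) or Hif1a Ahr flox replicate 1 (0.103) or 3 (0.0937), and Xaf1 without KO replicate 2 (-0.25, adjusted p = 0.159) or 3 (0.0652) or flox replicate 1 (0.135). Both calls were also lost with the libraries of that line alone (adjusted p = 0.18 and 0.137). With replicates as pairs, Rtp4 was also called lower in Ahr KO cells (-0.62, adjusted p = 0.0303). Mx2 was not called in any line (-0.57 to 0.48).

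The ISG15 system tags proteins with a ubiquitin-like modifier, and both its genes here behaved differently from each other. Usp18, which removes ISG15 and restrains signalling by the type I receptor, had 4.95, 6.17 and 7.46 CPM in Hif1a KO libraries, against 1.99, 2.56 and 2.29 CPM in Hif1a flox libraries, and rose by 1.44 ± 0.22 (adjusted p = 6.3e-05). It had 6.65, 3.6 and 5.12 CPM in Hif1a Ahr KO libraries, against 1.87, 1.99 and 1.91 CPM in Hif1a Ahr flox libraries, and rose by 1.41 ± 0.22 (adjusted p = 9.92e-05). Ahr KO libraries had 1.93, 1.30 and 1.60 CPM, against 1.37, 0.950 and 1.55 CPM in Ahr flox libraries (0.32 ± 0.24, adjusted p = 0.508). Usp18 had the largest called rise of the 38 genes in both lines with floxed Hif1a, and its groups overlapped in the Ahr line. Isg15 itself had 4.84, 4.76 and 3.45 CPM in Hif1a KO libraries, against 3.77, 4.60 and 4.37 CPM in Hif1a flox libraries (0.04 ± 0.14, adjusted p = 0.873). It had 3.45, 3.95 and 3.40 CPM in Ahr KO libraries, against 3.94, 3.25 and 3.36 CPM in Ahr flox libraries (0.03 ± 0.14, adjusted p = 0.937). It had 2.76, 2.62 and 2.52 CPM in Hif1a Ahr KO libraries, against 4.60, 4.01 and 4.71 CPM in Hif1a Ahr flox libraries, a change of -0.75 ± 0.14 (adjusted p = 0.00059). A fall without overlap was thus seen for Isg15 in the Hif1a Ahr line.

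Parp9 and Dtx3l encode partners in a complex that attaches ADP-ribose and ubiquitin. Parp9 had 63.3, 67.2 and 63.7 CPM in Hif1a KO libraries, against 96.9, 88.2 and 101 CPM in Hif1a flox libraries, a change of -0.56 ± 0.07 (adjusted p = 1.53e-05). It had 91.5, 93.5 and 90.8 CPM in Ahr KO libraries, against 85.1, 95.4 and 91.1 CPM in Ahr flox libraries (0.02 ± 0.07, adjusted p = 0.912). It had 56.7, 49.6 and 50.7 CPM in Hif1a Ahr KO libraries, against 98.2, 100 and 83.8 CPM in Hif1a Ahr flox libraries, a change of -0.85 ± 0.07 (adjusted p = 1.27e-07). Parp9 fell in both lines with floxed Hif1a, with no overlap. Dtx3l changed by -0.13 ± 0.07 in Hif1a KO cells (adjusted p = 0.186) and by -0.35 ± 0.07 in the Hif1a Ahr KO group (adjusted p = 0.00142). Parp14, another ADP-ribosyltransferase, rose by 0.28 ± 0.08 in Hif1a KO cells (adjusted p = 0.0144), a call lost without KO replicate 2 (0.101) or flox replicate 1 (0.093).

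Interferon-inducible GTPases coat and disrupt the vacuoles of intracellular pathogens, and 5 of the 6 rose in Hif1a KO cells (17.6% of all genes rose). Gbp3 had 45.0, 44.5 and 47.0 CPM in Hif1a KO libraries, against 29.4, 27.2 and 24.4 CPM in Hif1a flox libraries, and rose by 0.75 ± 0.07 (adjusted p = 1.51e-07). It had 27.4, 28.1 and 30.2 CPM in Ahr KO libraries, against 21.4, 20.7 and 22.0 CPM in Ahr flox libraries, and rose by 0.42 ± 0.07 (adjusted p = 0.00103). It had 41.3, 40.7 and 40.9 CPM in Hif1a Ahr KO libraries, against 24.2, 23.5 and 26.2 CPM in Hif1a Ahr flox libraries, and rose by 0.74 ± 0.07 (adjusted p = 2.13e-07). Every KO library of Gbp3 lay above every flox library of its line. Summed with its close paralog Gbp7 it was still called in all 3 lines, with changes of 0.34, 0.24 and 0.24 in the lines Hif1a, Ahr and Hif1a Ahr. Gbp4 had 185, 179 and 188 CPM in Hif1a KO libraries, against 197, 171 and 200 CPM in Hif1a flox libraries (-0.04 ± 0.10, adjusted p = 0.784). It had 214, 237 and 215 CPM in Ahr KO libraries, against 138, 167 and 155 CPM in Ahr flox libraries, and rose by 0.53 ± 0.10 (adjusted p = 0.00329). It had 229, 264 and 246 CPM in Hif1a Ahr KO libraries, against 176, 202 and 146 CPM in Hif1a Ahr flox libraries, and rose by 0.50 ± 0.10 (adjusted p = 0.000997). Gbp4 thus rose where Ahr was floxed with Cre and overlapped in the Hif1a line. Summed with Gbp6, Gbp8, Gbp9 and Gbp10 it changed by 0.42 in Ahr KO cells (adjusted p = 0.0125) and by 0.32 in the Hif1a Ahr KO group (adjusted p = 0.0148).

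Igtp, an immunity-related GTPase, had 43.7, 60.3 and 38.2 CPM in Hif1a KO libraries, against 19.4, 26.4 and 21.3 CPM in Hif1a flox libraries, and rose by 1.08 ± 0.23 (adjusted p = 0.0018). It was at -0.51 ± 0.23 in Ahr KO cells (adjusted p = 0.222), which was a call with replicates as pairs (adjusted p = 0.00198), a pairing that the Ahr line allows, and with the libraries of that line alone (0.0154), and at -0.13 ± 0.22 in Hif1a Ahr KO cells. Gbp2 rose by 0.76 ± 0.17 (adjusted p = 0.00296) and Irgm1 by 0.52 ± 0.09 (adjusted p = 0.000207) in Hif1a KO cells. Gbp7 changed there by 0.21 ± 0.06 (adjusted p = 0.0178), a call lost without KO replicate 2 (0.0628) or 3 (0.0566) or flox replicate 1 (0.058). Gbp2 and Irgm1 were not called in the other lines. Gbp7 in Ahr KO cells (0.20) was called by DESeq2 (adjusted p = 0.0409), with the libraries of that line alone (0.0253) and without Hif1a Ahr flox replicate 3 (0.0171).

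Of the antigen processing genes, Tap1 and Psmb9, whose promoter windows overlap, rose together, while Psmb8 did not pass the test. Tap1, a subunit of the peptide transporter of the endoplasmic reticulum, had 209, 214 and 216 CPM in Hif1a KO libraries, against 151, 145 and 169 CPM in Hif1a flox libraries, and rose by 0.46 ± 0.06 (adjusted p = 2.45e-05). It had 203, 220 and 225 CPM in Hif1a Ahr KO libraries, against 157, 147 and 161 CPM in Hif1a Ahr flox libraries, and rose by 0.48 ± 0.06 (adjusted p = 1.61e-05). Ahr KO libraries had 152, 151 and 152 CPM, against 160, 151 and 144 CPM in Ahr flox libraries (0.00 ± 0.06, adjusted p = 0.997). Psmb9, an immunoproteasome subunit gene, had 112, 127 and 113 CPM in Hif1a KO libraries, against 80.4, 82.8 and 84.9 CPM in Hif1a flox libraries, and rose by 0.50 ± 0.07 (adjusted p = 1.99e-05). It had 111, 101 and 118 CPM in Hif1a Ahr KO libraries, against 87.3, 80.1 and 88.6 CPM in Hif1a Ahr flox libraries, and rose by 0.36 ± 0.07 (adjusted p = 0.000517). Ahr KO libraries had 70.3, 72.1 and 75.8 CPM, against 77.0, 72.1 and 80.6 CPM in Ahr flox libraries (-0.07 ± 0.07, adjusted p = 0.618). For both genes the KO and flox values were apart in the lines with floxed Hif1a and overlapped in the Ahr line. Psmb8, another immunoproteasome subunit gene, had changes between -0.02 and 0.06.

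The Hif1a KO effect differed from the Ahr KO effect by test in 22 of the 38 genes, 19 of them with the higher value in the Hif1a line (16.6% of all genes) and 3 with the lower value (15.7% of all genes). The difference had its smallest adjusted p for Ifit2, at 1.64 ± 0.20 (adjusted p = 1.01e-05), and Isg20, at -2.04 ± 0.26 (adjusted p = 3.74e-05). For Ifih1 it was 1.25 ± 0.19 and for Irf7 1.14 ± 0.19. Parp9 and Gbp4 had the other negative differences, at -0.58 ± 0.10 and -0.57 ± 0.14. Of the 22 calls 20 held without each library in turn, and those of Irf9 (adjusted p up to 0.113) and Parp14 (up to 0.114) did not. Irf9 lost it without Hif1a KO replicate 1 or 2, any Hif1a flox library, Ahr KO replicate 1 or 3, or Ahr flox replicate 1 or 2. Parp14 lost it without Hif1a KO replicate 2 or 3, Hif1a flox replicate 1, Ahr KO replicate 2 or 3, or Ahr flox replicate 1. With paralogs summed, the differences of Gbp3 (adjusted p = 0.39) and Gbp4 (0.0648) were no longer called.

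Of the 20 genes that rose in Hif1a KO cells, 6 also rose in Hif1a Ahr KO cells (Zbp1, Bst2, Usp18, Gbp3, Tap1 and Psmb9), 13 were not called there and Irf7 was lower there. The same split over all genes that rose in Hif1a KO cells is not given here, so it is not read as particular to these genes. The Hif1a Ahr KO effect was also tested against the Hif1a KO effect, a contrast added after values had been seen. This contrast called 9 of the 38 genes: 8 with the lower effect in the Hif1a Ahr line (5.11% of all genes) and 1, Gbp4, with the higher effect (4.52% of all genes). The 8 were Ifit2 (-1.23 ± 0.20, adjusted p = 0.00199), Ddx58 (-0.59 ± 0.09, adjusted p = 0.000924), Irf7 (-0.95 ± 0.19, adjusted p = 0.00602), Isg15 (-0.79 ± 0.20), Igtp (-1.22 ± 0.32), Rsad2 (-0.93 ± 0.27), Irf1 (-0.81 ± 0.24) and Eif2ak2 (-0.37 ± 0.12). Those of Ifit2, Ddx58 and Irf7 held without each library in turn. The call of Isg15 was lost without Hif1a KO replicate 1 or 2, Hif1a flox replicate 1 or Hif1a Ahr flox replicate 1 (0.0522 to 0.0636). Igtp lost it without Hif1a KO replicate 2, Hif1a flox replicate 1 or 3, Hif1a Ahr KO replicate 2, or Hif1a Ahr flox replicate 1 or 3 (0.0512 to 0.0777). Gbp4 lost it without Hif1a KO replicate 2, Hif1a flox replicate 1 or 3, Hif1a Ahr KO replicate 2 or Hif1a Ahr flox replicate 1 (0.0537 to 0.0705). Irf1 (0.0533 to 0.12), Rsad2 (0.0515 to 0.118) and Eif2ak2 (0.0532 to 0.134) lost it without most libraries of the Hif1a and Hif1a Ahr lines and some of the Ahr line. The count was 3 without Hif1a KO replicate 2, Hif1a flox replicate 1 or Hif1a Ahr flox replicate 1, and 4 without Hif1a flox replicate 3 or Hif1a Ahr KO replicate 2. With paralogs summed the call of Gbp4 was lost (adjusted p = 0.274). For Usp18, Gbp3 and Tap1 the changes in Hif1a KO and Hif1a Ahr KO cells were 1.44 and 1.41, 0.75 and 0.74, and 0.46 and 0.48. Both contrasts between lines use the Hif1a libraries and so are not independent.

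**Figure D4:**
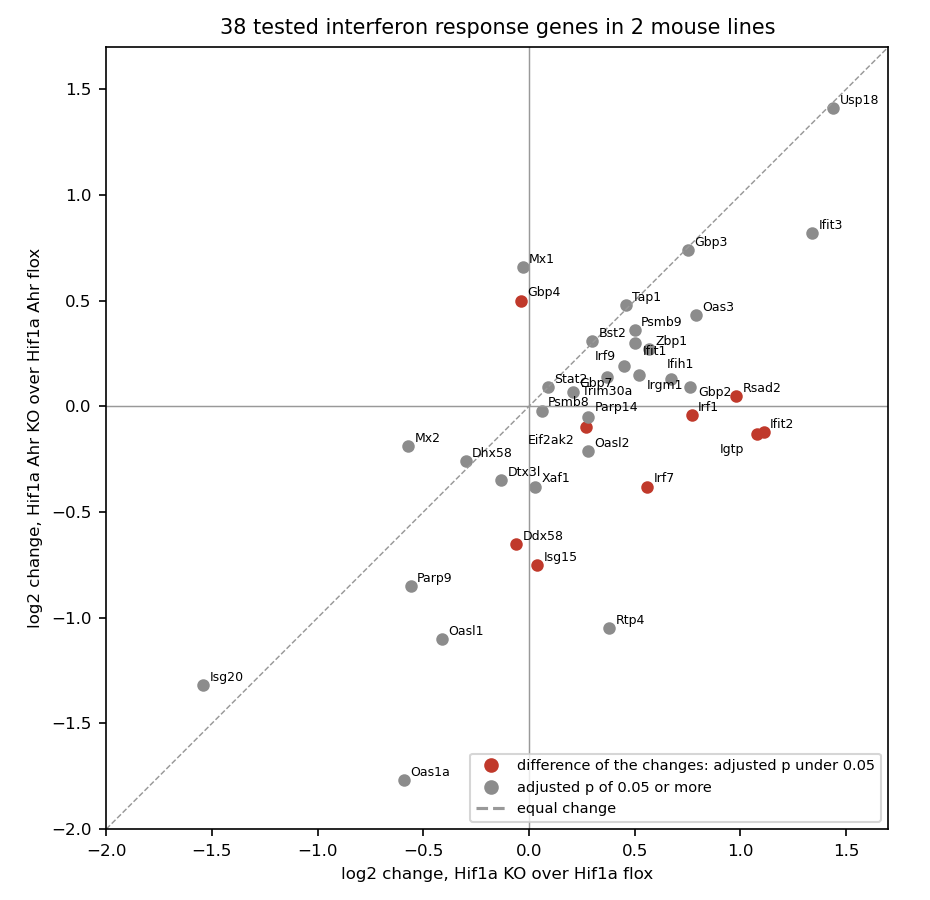
Log2 change in Hif1a KO cells (over Hif1a flox, horizontal) and in Hif1a Ahr KO cells (over Hif1a Ahr flox, vertical) for the 38 tested interferon response genes, with the dashed line marking equal change and red points a called difference between the lines. Usp18, Gbp3, Tap1 and Isg20 lie near the dashed line, while Ifit2, Igtp, Rsad2, Irf1 and Irf7 lie well below it.

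No gene of the 38 had a Hif1a Ahr KO effect that departed by test from the Hif1a KO effect plus the Ahr KO effect, added as log2 values (0.0358% of all genes did). The median departure of the 38 was -0.29, beside 0.01 for all genes, and 5 of the 38 lay above 0. A lack of calls does not show that the effects add. By edgeR 8 had an unadjusted p under 0.05, and DESeq2 and limma voom also called 0. For these 8, and for the 5 above 0, no share of all genes is given here, so they are not read as a departure. Among these 8 were Isg15, at -0.82 ± 0.25 (unadjusted p = 0.00368, adjusted p = 0.587), and Gbp3, at -0.44 ± 0.12 (unadjusted p = 0.00146, adjusted p = 0.537). The 3 flox groups, which come from 3 lines, were compared in the same fit. None of the 38 differed between them at an adjusted p under 0.05 (0.245% of all genes did), 4 had an unadjusted p under 0.05, DESeq2 called 1 and limma voom 0. No share of all genes is given for the unadjusted count. The gene that DESeq2 called was Gbp3 (adjusted p = 0.00629), which edgeR placed at 0.12 with all libraries and at 0.0369 without Hif1a flox replicate 3.

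The rest of the pathway was read from 84 further genes, 77 of them tested. In Hif1a KO cells 25 rose and 10 fell, in Ahr KO cells 2 rose and 5 fell, and in Hif1a Ahr KO cells 23 rose and 18 fell. Over all genes tested, 17.6% rose and 17.8% fell in Hif1a KO cells, 2.14% rose and 4.78% fell in Ahr KO cells, and 14.8% rose and 16.5% fell in Hif1a Ahr KO cells. The Ahr KO counts are near those shares. With replicates as pairs, 8 of the 77 rose and 12 fell in Ahr KO cells. The shares over all genes are from the fit without pairs and are no background for these paired counts. The medians of the 77 without pairing were 0.16, -0.01 and 0.08. Of the ligands, Ifng, the gene of interferon gamma, had 46.7, 49.4 and 45.3 CPM in Hif1a KO libraries, against 69.7, 67.0 and 58.6 CPM in Hif1a flox libraries (-0.47 ± 0.31, adjusted p = 0.282). It was not called in Ahr KO (0.57 ± 0.31, adjusted p = 0.34) or Hif1a Ahr KO cells (0.53 ± 0.31, adjusted p = 0.23). With replicates as pairs, which the Hif1a and Ahr lines allow, Ifng was called lower in the Hif1a line (-0.46, adjusted p = 0.000359) and higher in the Ahr line (0.59, adjusted p = 0.000254). The Hif1a call was also made with the libraries of that line alone (0.00111). In the Hif1a Ahr line Ifng was called higher without flox replicate 3 (0.98, adjusted p = 0.0179). Ifnb1 and Ifna1 had 0 counts in all 18 libraries, which allows up to 0.00302 CPM over them together (3 counts, counting error only), and Ifna2 and Ifna4 had 2 counts each.

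The receptor chains of type I interferon rose in both lines with floxed Hif1a. Ifnar1 had 110, 104 and 116 CPM in Hif1a KO libraries, against 82.2, 80.1 and 82.0 CPM in Hif1a flox libraries, and changed by 0.43 ± 0.05 in Hif1a KO cells (adjusted p = 2.68e-06), 0.16 ± 0.05 in Ahr KO cells (adjusted p = 0.0593, and 0.0463 with replicates as pairs) and 0.77 ± 0.05 in the Hif1a Ahr KO group (adjusted p = 2.49e-09). Ifnar2 changed by 0.72 ± 0.09, 0.05 ± 0.09 and 0.71 ± 0.09 in the same order, with calls in the first and last. The kinase gene Jak1 fell in Hif1a KO cells (-0.30 ± 0.07) and Jak2 in Hif1a Ahr KO cells (-0.30 ± 0.07, adjusted p = 0.0701 with the libraries of that line alone), and Ifngr1, a receptor chain for interferon gamma, rose in Hif1a Ahr KO cells (0.58 ± 0.14, adjusted p = 0.00379). With replicates as pairs Ifngr1 was also called higher by 0.24 in the Hif1a line (adjusted p = 0.00932) and by 0.30 in the Ahr line (adjusted p = 0.00773).

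Of the inhibitors, Socs3, which blocks JAK kinases, rose in Hif1a KO (0.68 ± 0.13) and Hif1a Ahr KO cells (0.72 ± 0.13), while Ptpn2, a phosphatase that dampens cytokine signalling, changed by -0.24 ± 0.06 and -0.37 ± 0.06 there. Among sensing genes the DNA sensor Cgas rose in Hif1a KO cells (0.47 ± 0.10, adjusted p = 0.00137) and Hif1a Ahr KO cells (0.34 ± 0.10, adjusted p = 0.0136, lost without Hif1a Ahr KO replicate 3 at 0.075 or Hif1a Ahr flox replicate 2 at 0.0753). In Hif1a Ahr KO cells Mavs, the adaptor of the RNA sensors, rose (0.40 ± 0.08) and the kinase gene Tbk1 fell (-0.31 ± 0.05). Irf8 had 415, 267 and 524 CPM in Hif1a KO libraries, against 826, 571 and 738 CPM in Hif1a flox libraries (-0.82 ± 0.29, adjusted p = 0.0426). That call was lost without Hif1a KO replicate 1 (0.0884) or 2 (0.156), Hif1a flox replicate 1 (0.135) or 3 (0.0986), any Ahr KO or Hif1a Ahr KO library (0.0511 to 0.0562) or Ahr flox replicate 3 (0.0605). In Ahr KO cells Irf8 changed by 0.96 ± 0.29 (adjusted p = 0.0685), and it was called higher there with replicates as pairs (1.01, adjusted p = 0.00127).

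Class I antigen presentation outside the 39 genes followed the pattern of Tap1 in part. In Hif1a KO cells 5 of 9 were higher (17.6% of all genes). In Hif1a Ahr KO cells 5 were higher and 2 lower (14.8% and 16.5% of all genes). Nlrc5, the transactivator of class I genes, rose by 0.75 ± 0.11 in Hif1a KO cells (adjusted p = 3.74e-05) and by 1.01 ± 0.11 in the Hif1a Ahr KO group (adjusted p = 1.56e-06). The class I heavy chain gene H2-K1 rose by 0.49 ± 0.08 and 0.43 ± 0.08 there, and H2-D1 by 0.36 ± 0.07 and 0.41 ± 0.07. None of the 9 was called in Ahr KO cells. Of 42 other interferon response genes tested, 13 rose and 7 fell in Hif1a KO cells (17.6% and 17.8% of all genes). In Ahr KO cells 2 rose and 5 fell (2.14% and 4.78% of all genes). In Hif1a Ahr KO cells 11 rose and 13 fell (14.8% and 16.5% of all genes). The guanylate-binding protein genes Gbp5 and Gbp6 rose by 0.95 ± 0.09 and 1.41 ± 0.16 in Hif1a KO cells and by 0.46 ± 0.09 and 1.07 ± 0.16 in Hif1a Ahr KO cells. Sp110, a nuclear body gene, rose in all 3 (0.44 ± 0.08, 0.50 ± 0.08 and 0.87 ± 0.08 in the lines Hif1a, Ahr and Hif1a Ahr). Parp12 went in opposite directions, by 0.96 ± 0.21 in Hif1a KO cells and -1.17 ± 0.22 in Ahr KO cells.

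The Ifitm genes, whose membrane proteins hinder virus entry, fell in all 3 KO groups. Ifitm1 had 138, 122 and 122 CPM in Hif1a KO libraries, against 335, 365 and 390 CPM in Hif1a flox libraries, with changes of -1.51 ± 0.20, -1.38 ± 0.20 and -1.78 ± 0.21 in the lines Hif1a, Ahr and Hif1a Ahr. For Ifitm2 the changes were -1.19 ± 0.14, -0.69 ± 0.14 and -1.25 ± 0.14, and for Ifitm3 they were -1.03 ± 0.13, -0.93 ± 0.13 and -1.19 ± 0.13. The adjusted p of these 9 changes lay at or below 0.00559.

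**Figure D5:**
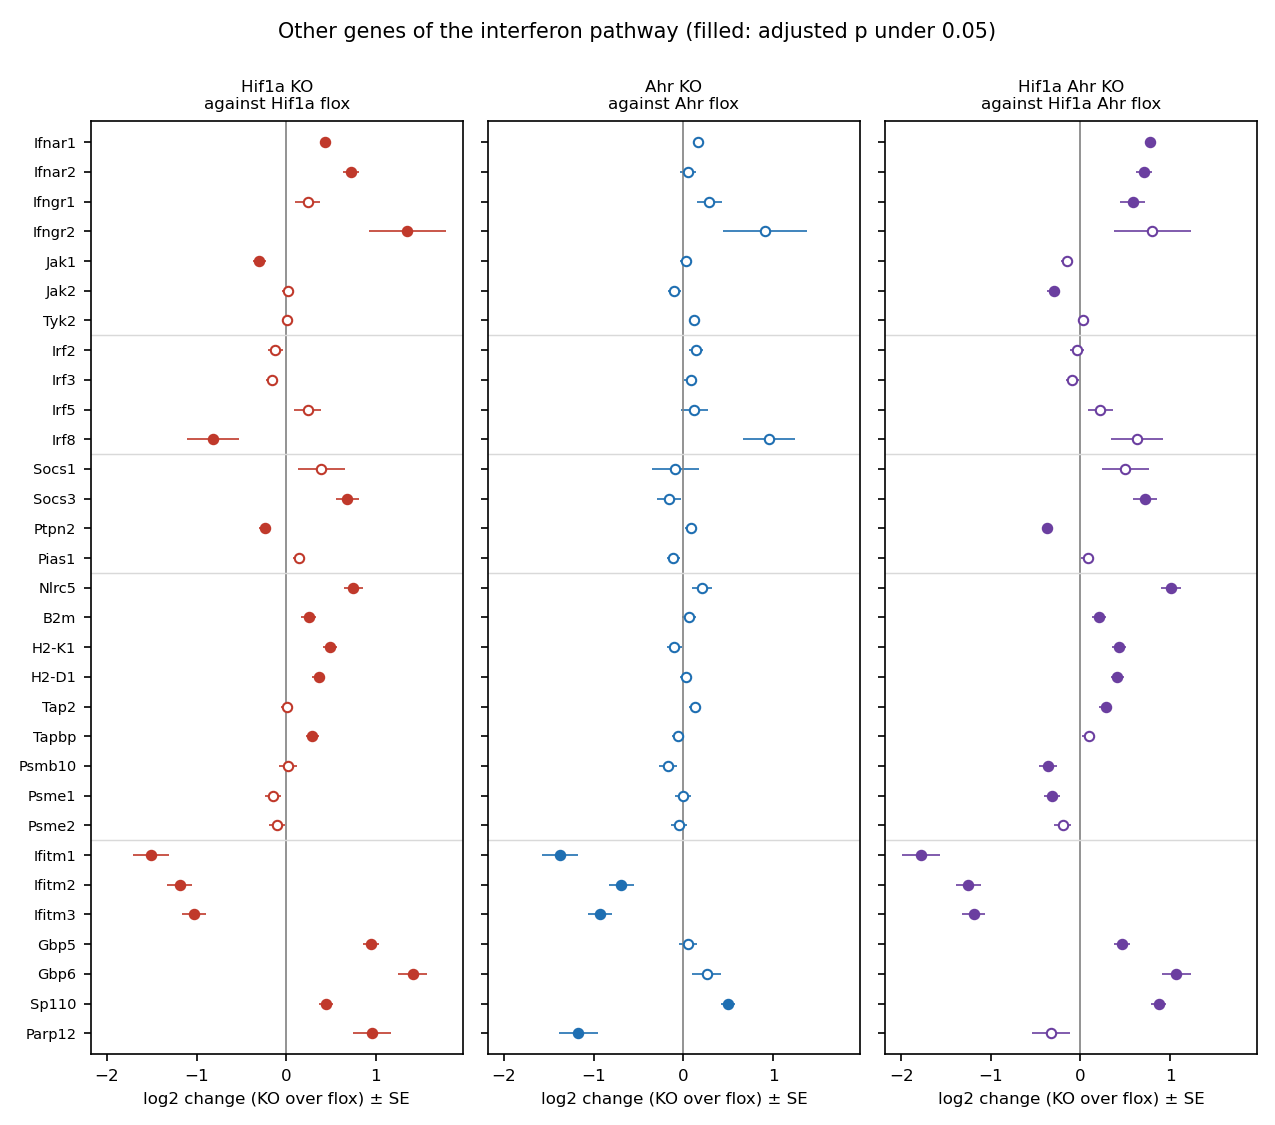
Log2 change (KO over flox) with its standard error for other genes of the interferon pathway in the 3 lines, filled at an adjusted p under 0.05: receptors and kinases, other IRF genes, inhibitors, class I genes, and at the bottom the other response genes with the smallest adjusted p. Ifnar1, Ifnar2, Socs3, Nlrc5, H2-K1 and H2-D1 lie right of 0 in the Hif1a and Hif1a Ahr panels, and the 3 Ifitm genes lie left of 0 in all panels.

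Some markers of other cells moved with the KO groups. The 8 T cell markers summed to 74.0 to 113 CPM in Hif1a KO libraries, against 176 to 219 CPM in Hif1a flox libraries, to 125 to 164 CPM in Ahr KO libraries, against 188 to 195 CPM in Ahr flox libraries, and to 155 to 182 CPM in Hif1a Ahr KO libraries, against 198 to 234 CPM in Hif1a Ahr flox libraries. In each comparison 2 of these 8 fell, Cd3d and Cd3g, and none rose. Of all genes, 17.8%, 4.78% and 16.5% fell in the lines Hif1a, Ahr and Hif1a Ahr. The T cell sums were mostly Cd28, Cd3g and Cd3d, and Cd28 was not called in any line. The uncalled T cell markers all had changes above 0 in Ahr KO cells, and all but Cd4 did in Hif1a Ahr KO cells. In Hif1a KO cells Cd8a, Cd8b1 and Cd5 had changes above 0, and Cd3e, Cd4 and Cd28 below 0. The 6 dendritic cell markers summed to 11.6 to 12.8 CPM in Hif1a KO libraries, against 41.8 to 49.7 CPM in Hif1a flox libraries. They summed to 12.1 to 15.7 CPM in Hif1a Ahr KO libraries, against 44.2 to 49.2 CPM in Hif1a Ahr flox libraries, with Cd209a at 0 in all 18 libraries. Most of the dendritic flox sums was H2-Ab1, which averaged 39.6 CPM in Hif1a flox and 5.14 CPM in Hif1a KO libraries. Zbtb46 was not called (0.35 ± 0.26 in Hif1a KO and 0.49 ± 0.26 in Hif1a Ahr KO cells). Xcr1 fell in Hif1a Ahr KO cells (-3.4 ± 0.48) and was not called in Hif1a KO cells (-1.02 ± 0.41). The 6 macrophage and monocyte markers summed to at most 10.5 CPM, the 7 neutrophil markers to at most 5.87 CPM and the 5 B cell markers to at most 1.18 CPM in any library. In Hif1a KO cells 3 of 3 tested macrophage and monocyte markers and 4 of 5 tested neutrophil markers fell (17.8% of all genes). In Hif1a Ahr KO cells 2 of 3 and 5 of 5 fell (16.5% of all genes), and none was called in Ahr KO cells. Neutrophil sums were 0.0853 to 0.138 CPM in Hif1a KO libraries, against 1.39 to 5.8 CPM in Hif1a flox libraries. Macrophage and monocyte sums were 0.87 to 1.87 CPM, against 4.22 to 9.87 CPM. The 6 markers of plasmacytoid dendritic cells, known producers of type I interferon, summed to 55.8 to 65.2 CPM in Hif1a KO libraries, against 59.4 to 65.9 CPM in Hif1a flox libraries, and to 62.3 to 80.1 CPM in Hif1a Ahr KO libraries, against 49.8 to 65.0 CPM in Hif1a Ahr flox libraries. Most of these sums was Tcf4, which rose in Hif1a Ahr KO cells (0.28 ± 0.11, adjusted p = 0.0496). Cox6a2, another of the 6, rose in Hif1a KO cells (1.58 ± 0.50, adjusted p = 0.0198) and Hif1a Ahr KO cells (2.15 ± 0.55, adjusted p = 0.00643). Its levels were low, with means of 1.03 CPM in Hif1a KO and 0.344 CPM in Hif1a flox libraries. Tcf4 was not called in Hif1a KO cells (-0.08 ± 0.11). Spib and Ccr9 were not called in any line, with changes of -0.47 and -0.05 in Hif1a KO cells and 0.76 and 0.55 in Hif1a Ahr KO cells. Siglech had group means of at most 0.0439 CPM, and Klk1 was at 0 in every library. NK markers summed to 12200 to 14000 CPM in Hif1a KO libraries, against 18000 to 21900 CPM in Hif1a flox libraries. Most of these sums was Gzmb, which averaged 10200 CPM in Hif1a KO and 14400 CPM in Hif1a flox libraries. Of these 8, 3 were higher and 3 lower (17.6% and 17.8% of all genes). The 3 higher were Ncr1, Klrk1 and Klrd1, and the 3 lower were Eomes, Prf1 and Gzmb. In Ahr KO cells 2 of the 8 rose and none fell (2.14% and 4.78% of all genes). In Hif1a Ahr KO cells 3 rose and none fell (14.8% and 16.5% of all genes). The part of such shifts in the interferon response values was not tested.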

How the data were processed

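Messenger RNA of 18 libraries (6 groups of 3) was sequenced strand-specifically on DNBSEQ, per the labels' protocols. The authors deposited estimated counts per Ensembl gene, which need not be whole. Per the submitters' processing notes, Trim Galore 0.6.4, kallisto 0.4.6, edgeR 3.17 and GRCm39 were used; the transcript annotation and the strand setting are not given in the sources used here. Deposited log2 CPM tables were not used. Of 56953 genes 52029 carry a symbol, and genes without one hold 0.315% of counts.

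Counts were fitted in R 4.3.3 with edgeR 4.0.16 (filterByExpr, TMM, quasi-likelihood test) over all 18 libraries without a replicate block, leaving 16747 genes and 12 residual degrees of freedom (biological coefficient of variation 0.117). P-values were adjusted by Benjamini-Hochberg over all genes tested, and called under 0.05. The SE was taken as |log2 change| over the root of the F statistic. Alternatives were DESeq2 1.42.0 on rounded counts, limma 3.58.1 voom, no filter, the line's libraries alone, summed paralogs, a replicate block, and leaving out each library. Close paralogs may share reads.

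Same-numbered replicates were taken as pairs where all 3 correlations of their deviations from group means exceeded 0.1 over 9987 genes of at least 5 CPM. They were 0.315, 0.53 and 0.296 in the Hif1a line and 0.362, 0.333 and 0.534 in the Ahr line. Libraries with unlike numbers gave -0.367 to 0.11 in the Hif1a line and -0.257 to -0.162 in the Ahr line. The labels do not say what a number marks, so the pairing rests on these same data.

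The genes and lists were chosen with earlier results of these data known. Values in every library are given for the transcription factors, the 3 strongest rises and falls by adjusted p of every KO comparison, genes called in opposite directions, and the 2 genes with the smallest adjusted p for each difference of effects and among flox groups. Of each pathway list, up to 4 called genes per comparison are named by adjusted p. Library values shown for Oas1a, Oas3, Rsad2, Mx1, Igtp, Ifng, Ifnar1, Irf8 and Ifitm1 are outside that rule and were chosen after their values were seen. Promoter sequences came from RefSeq. One gene of the pathway lists is not reported here.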

Additional observations from a re-analysis of the deposited data

Results flagged for a closer look

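The effect of the KO differed between the Hif1a and Ahr lines by the interaction test (edgeR, adjusted p under 0.05) for 22 of the 38 genes, given here as the Hif1a KO effect minus the Ahr KO effect in log2. Among transcription factors it was 0.95 for Irf1, 1.14 for Irf7 and 0.41 for Irf9. Among sensors it was 1.25 for Ifih1, 0.33 for Ddx58, 0.57 for Zbp1 and 0.40 for Eif2ak2. Among antiviral genes it was 1.22 for Oas3, 1.64 for Ifit2, -2.04 for Isg20, 1.09 for Rsad2 and 0.43 for Trim30a. It was 1.12 for Usp18, -0.58 for Parp9 and 0.34 for Parp14. Among GTPases it was 0.92 for Gbp2, 0.33 for Gbp3, -0.57 for Gbp4, 1.60 for Igtp and 0.60 for Irgm1. For antigen processing it was 0.45 for Tap1 and 0.58 for Psmb9.

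The effect of the KO also differed between the Hif1a Ahr and Hif1a lines for 9 genes, given as the Hif1a Ahr KO effect minus the Hif1a KO effect. It was -0.81 for Irf1, -0.95 for Irf7, -0.59 for Ddx58, -0.37 for Eif2ak2, -1.23 for Ifit2, -0.93 for Rsad2, -0.79 for Isg15, 0.54 for Gbp4 and -1.22 for Igtp.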

How the results depend on the processing

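No called gene reversed its direction under an alternative. With the libraries of one line alone, the counts were 4 lower in Hif1a KO cells (2 with all libraries), 4 higher in Ahr KO cells (2) and 5 lower in Hif1a Ahr KO cells (9). Of the 17 calls in Hif1a Ahr KO cells, 6 were lost in that setting: Irf7, Oas1a, Rtp4, Xaf1, Zbp1 and Bst2. Without the filter on low counts, Bst2 (adjusted p = 0.0514), Rtp4 (0.1) and Zbp1 (0.0692) lost theirs there, and Bst2 (0.0524) in Hif1a KO cells. With the replicate block, 4 were lower in Hif1a KO cells and 17 differed between the Hif1a Ahr and Hif1a effects (9 without it). The pairing did not hold in the Hif1a Ahr line (correlations 0.067, 0.448 and 0.27), where the replicate block added Oas3 (0.44, adjusted p = 0.0132) and Oasl1 (-1.11, adjusted p = 0.0116). That difference was 5 genes with no filter on low counts. Among flox groups DESeq2 called 1 gene (0 in edgeR). The cause of these shifts was not tested, and no share of all genes is given for these settings.

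Leaving out 1 library at a time gave 16 to 20 genes higher and 2 to 3 lower in Hif1a KO cells, 2 to 3 higher and 1 to 4 lower in Ahr KO cells, and 6 to 8 higher and 6 to 10 lower in Hif1a Ahr KO cells. The Hif1a and Ahr effects differed for 20 to 24 genes, the Hif1a Ahr and Hif1a effects for 3 to 12, and the flox groups for 0 to 1. The departure from the sum was 0 genes in every setting. Genes near 1 CPM and below (Oasl1, Oasl2, Ifit1, Ifit3) are limited by depth.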
